A study of Mus musculus with 25 samples.

Results

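RNA-seq of mouse white adipose tissue was examined for 10 genes that mark tissue-resident and alternatively activated macrophages. They were taken by symbol from the 54752 genes listed for each library. *Folr2*, *Lyve1*, *Timd4*, *Cd163*, *Cd209f* and *Mrc1* are used as markers of resident macrophages, and *Clec10a*, *Retnla*, *Chil3* and *Arg1* as markers of alternative activation. All 10 were tested in epididymal fat (eWAT), and 9 in inguinal fat (iWAT), where *Chil3* was under the filter on low counts. The 25 libraries came from male C57BL/6N mice in 6 groups. In eWAT these were 4 wild type mice on normal chow diet (ND), 5 wild type mice on a high-fat diet (HFD) and 5 *Acod1*-/- mice on HFD, and in iWAT 3, 5 and 3. The HFD drew 60% of calories from fat and began at 5 weeks of age. It lasted 16 weeks, except that the labels of the *Acod1*-/- iWAT libraries 2 and 3 give 17 and 18 weeks. *Acod1*, which encodes the enzyme that makes itaconate, was deleted in the whole body, so an effect of genotype cannot be assigned to macrophages. *Acod1*-/- mice on ND were not analysed here.

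Adipose tissue holds macrophages of several kinds. Resident cells lie along vessels and in the stroma, take up debris and ligands through scavenger and lectin receptors, and persist in lean tissue. Monocyte-derived cells gather around dying adipocytes in obesity and express genes of lipid handling. Interleukin-4 and interleukin-13 act through the receptor chain IL4RA and the transcription factor STAT6 to induce *Retnla*, *Chil3*, *Arg1*, *Clec10a* and *Mrc1*, the programme known as alternative activation.

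Sequences upstream of the transcription start are shown for 5 members, because the tests separated these genes from each other. *Folr2* and *Mrc1* rose in eWAT on HFD while *Cd163* fell, *Retnla* rose in iWAT but was not called in eWAT, and *Timd4* fell in iWAT. Sequences are from RefSeq on GRCm38.p6, 5′ to 3′ on the strand of the gene, with transcribed bases left out. Of the 10 members, 7 had an entry. Capitals mark 3 motifs searched on both strands of these stretches, at most 250 bases before each RefSeq start. These were TTCNNNNGAA, bound by STAT6, GAGGAAG, bound by the macrophage factor PU.1, and TGCTGAC, the core recognised by MAF factors. They were found in 5.85%, 10.6% and 3.81% of 32841 windows of 250 bases over all genes.
Retnla (chr16:48842359-48842550, plus strand): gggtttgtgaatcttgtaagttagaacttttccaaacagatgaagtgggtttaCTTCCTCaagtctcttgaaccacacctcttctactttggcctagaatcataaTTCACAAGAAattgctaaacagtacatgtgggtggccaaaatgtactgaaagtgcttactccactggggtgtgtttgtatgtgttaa
Mrc1 (chr2:14229164-14229391, plus strand): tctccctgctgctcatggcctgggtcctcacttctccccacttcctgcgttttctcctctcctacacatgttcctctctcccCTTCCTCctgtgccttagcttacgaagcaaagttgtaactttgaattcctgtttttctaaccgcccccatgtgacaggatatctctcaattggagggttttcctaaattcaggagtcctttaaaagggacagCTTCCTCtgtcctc
Folr2 (chr7:101857195-101857440, minus strand): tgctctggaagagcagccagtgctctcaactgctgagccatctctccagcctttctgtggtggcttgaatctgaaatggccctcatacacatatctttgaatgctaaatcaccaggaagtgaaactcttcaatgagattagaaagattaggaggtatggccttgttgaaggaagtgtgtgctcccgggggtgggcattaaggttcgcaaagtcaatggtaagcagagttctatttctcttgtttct
Cd163 (chr6:124304401-124304650, plus strand): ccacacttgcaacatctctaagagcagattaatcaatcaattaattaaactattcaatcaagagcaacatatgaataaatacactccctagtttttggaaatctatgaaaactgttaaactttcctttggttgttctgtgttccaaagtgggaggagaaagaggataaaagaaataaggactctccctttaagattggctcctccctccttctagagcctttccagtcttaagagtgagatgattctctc
Timd4 (chr11:46810549-46810798, plus strand): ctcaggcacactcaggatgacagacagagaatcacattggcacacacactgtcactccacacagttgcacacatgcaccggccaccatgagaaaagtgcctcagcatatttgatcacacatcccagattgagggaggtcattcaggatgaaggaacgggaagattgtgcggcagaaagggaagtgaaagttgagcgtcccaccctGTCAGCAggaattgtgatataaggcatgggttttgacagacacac

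Of the 7, *Retnla* alone held the STAT6 motif in this window (TTCACAAGAA, starting at -145 from the RefSeq start), and it also held the PU.1 motif at -197, written CTTCCTC on this strand. *Mrc1* held the PU.1 motif at -168 and -36. *Timd4* held the MAF motif at -45, as GTCAGCA. The windows of *Folr2* and *Cd163*, and those of *Chil3* and *Cd209f*, held none of the 3. The far end of the *Cd163* window overlaps a small nucleolar RNA gene on the other strand. A match describes letters only, and no binding was measured.

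Each library had 31.41 to 52.34 M reads counted on genes. The deleted gene had 0 to 9 counts in every library, so it does not check the genotypes. Library numbers in the file headers fell into 2 ranges, called series 1 and series 2 here. Series 2 held all ND libraries and 1 library of each HFD group, so diet nearly coincides with series. Some libraries held RNA of other tissues. Genes of lymph node B cells (6 genes, among them *Ms4a1* and *Cr2*) summed to 554 to 787 CPM (counts scaled to library size, with TMM factors within a depot) in the 3 iWAT ND libraries, against at most 45.8 in the iWAT HFD libraries of either genotype and at most 76.8 in eWAT. Genes of the epididymis (7 genes) summed to over 100 CPM in 4 eWAT libraries, namely ND library 2 (7590), wild type HFD library 5 (112) and *Acod1*-/- libraries 1 and 5 (308 and 1040).

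Levels of the members spanned several orders. Per kilobase of cDNA, *Retnla*, a secreted resistin-like protein, was first of the 10 in each of the 6 groups, from 68.6 ± 7.79 RPKM (SD, n = 3) in iWAT ND to 573 ± 223 (n = 5) in iWAT of wild type mice on HFD. In eWAT ND, *Clec10a* (13.8 ± 4.99 RPKM, SD, n = 4), *Cd163* (13.4 ± 3.66), *Mrc1* (11.2 ± 2.5), *Folr2* (10.7 ± 3.35) and *Lyve1* (10.5 ± 2.98) followed, and their ranges over libraries overlapped. *Cd209f* (5.85 ± 2.65 RPKM) came next, and *Timd4* (0.738 ± 0.526), *Chil3* (0.407 ± 0.468) and *Arg1* (0.259 ± 0.164) were last. In eWAT of wild type mice on HFD, *Folr2* was second (58.7 ± 30.7 RPKM, SD, n = 5), with *Mrc1* (32.2 ± 13) and *Clec10a* (31.9 ± 9.38) next to it, and *Cd163* was seventh (6.70 ± 2.63). In *Acod1*-/- eWAT *Folr2* was second (16.3 ± 7.68 RPKM, SD, n = 5), beside *Clec10a* (15.6 ± 9.02) and *Mrc1* (12.3 ± 5.27). In iWAT ND alone, *Timd4* was second (18.7 ± 6.21 RPKM, SD, n = 3).

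**Figure D1:**
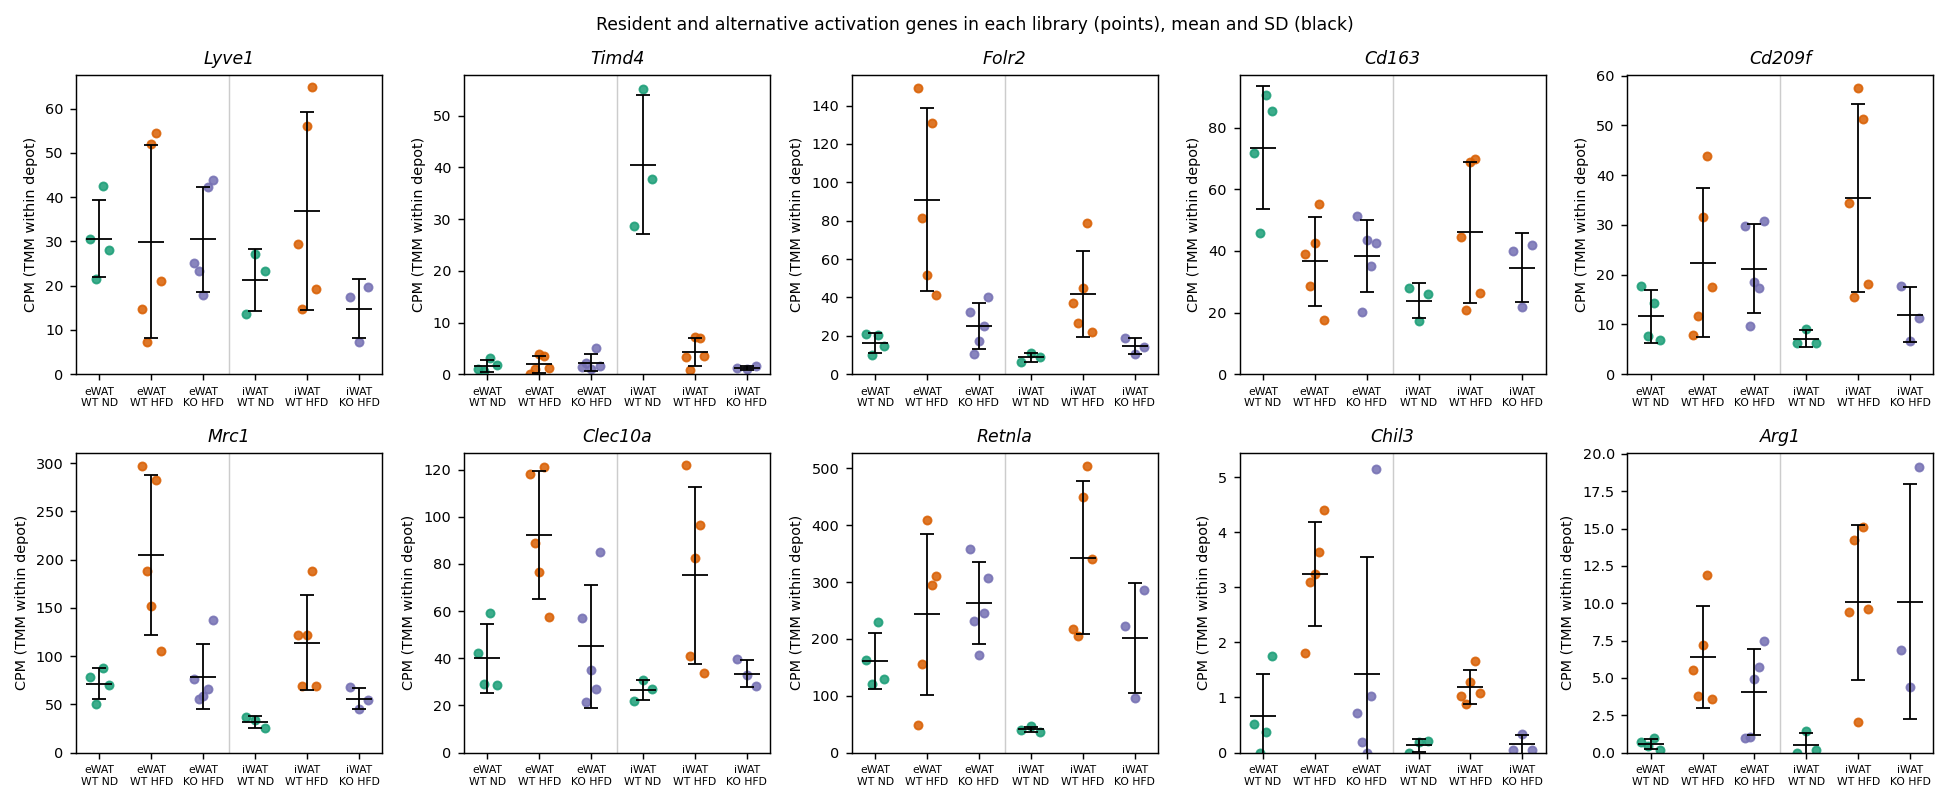
CPM of the 10 members in each library (points, normalized within its depot), with mean and SD (black), for eWAT on the left and iWAT on the right of each panel. In eWAT, Folr2, Mrc1 and Arg1 in wild type mice on HFD lie above every ND library, Cd163 has its highest libraries on ND, and Timd4 stands out in iWAT ND.

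Chow-fed and HFD-fed wild type mice were compared to ask how these genes differed by diet in eWAT. *Folr2*, *Mrc1*, *Clec10a* and *Arg1* rose, *Cd163* fell, and *Lyve1*, *Timd4*, *Cd209f*, *Retnla* and *Chil3* did not pass the test. The 4 of 10 members called higher stand against 24.8% of 14936 genes called higher, and the 1 called lower against 26.9%. The median log2 fold change was 1.08 over the members and -0.04 over all genes.

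*Folr2*, the folate receptor beta, had 20.8, 9.98, 20.6 and 14.7 CPM in ND libraries 1 to 4 and 149, 81.4, 51.6, 131 and 41.3 CPM in wild type HFD libraries 1 to 5. Every HFD library was above every ND library. The fitted log2 fold change was 2.46 ± 0.45 (SE, adjusted p = 0.00134, edgeR quasi-likelihood test), a 5.49-fold rise. *Mrc1*, the mannose receptor CD206, had 78.5, 49.9, 87.1 and 70.4 CPM on ND and 297, 188, 152, 282 and 105 on HFD. The groups were again apart (log2 fold change 1.52 ± 0.33, adjusted p = 0.00337). Groups apart in this direction were seen in 17.2% of all genes tested and in 4 members, also *Arg1* and *Chil3*, and in the other direction in 17.9% of genes and 0 members.

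*Clec10a*, a galactose-type lectin (CD301a), had 42.3, 29.1, 59.4 and 28.8 CPM on ND and 118, 88.7, 76.6, 121 and 57.7 on HFD. The lowest HFD library was just under the highest ND library. Its log2 fold change was 1.21 ± 0.38 (adjusted p = 0.0214). *Arg1*, arginase 1, had 0.713, 0.432, 1 and 0.155 CPM on ND (8 to 40 counts) and 5.54, 3.81, 7.20, 11.9 and 3.56 on HFD (178 to 460 counts). It showed the largest fold of the members here, 11.1 (log2 3.47 ± 0.72, adjusted p = 0.00254), from a low level.

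*Cd163*, the haptoglobin-haemoglobin scavenger receptor, went the other way. It had 71.9, 45.9, 90.7 and 85.3 CPM on ND and 38.9, 28.5, 42.7, 55.4 and 17.5 on HFD. HFD libraries were below ND library 1, 3 and 4 throughout, and HFD library 4 alone was above ND library 2. Its log2 fold change was -1.01 ± 0.31 (adjusted p = 0.0204).

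*Retnla* had 163, 121, 230 and 130 CPM on ND and 48.5, 155, 409, 294 and 310 on HFD. HFD library 1 was the lowest of all 9 and HFD library 3 the highest. Its log2 fold change was 0.59 ± 0.44 (adjusted p = 0.290), and without HFD library 1 it was 0.85 with an adjusted p of 0.0327. *Lyve1*, a hyaluronan receptor of resident macrophages that lymphatic endothelium also expresses, had 21.6 to 42.4 CPM on ND and 7.37 to 54.4 on HFD (log2 fold change -0.03 ± 0.48, adjusted p = 0.960). *Timd4*, a phosphatidylserine receptor for dying cells, had 0.540 to 3.11 CPM on ND and 0.0705 to 3.86 on HFD (log2 fold change 0.28 ± 0.81, adjusted p = 0.802). HFD library 1, which had the most macrophage RNA, had 3 counts of *Timd4*.

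*Cd209f*, a lectin of the DC-SIGN family, had 6.81 to 17.8 CPM on ND and 7.82 to 43.8 on HFD (log2 fold change 0.95 ± 0.49, adjusted p = 0.132). This value passed the threshold without ND library 1 (1.21, adjusted p = 0.0887), HFD library 1 (1.17, adjusted p = 0.0534) or HFD library 2 (1.11, adjusted p = 0.0873) and with DESeq2's Wald test (adjusted p = 0.0742), and it was 0.56 without HFD library 4. *Chil3*, the chitinase-like protein Ym1, had 0.517, 0, 0.377 and 1.76 CPM on ND and 1.81, 3.09, 3.25, 3.64 and 4.40 on HFD. The groups did not overlap, yet its log2 fold change of 2.28 ± 1.25 was not called (adjusted p = 0.153), and 5 alternatives, listed at the end, moved it past the threshold. These standard errors are wide, so for *Lyve1*, *Timd4* and *Chil3* a difference of 1 log2 unit could have been missed.

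The sum of 12 general macrophage genes, such as *Adgre1* (F4/80), *Cd68* and *C1qa*, was 548 to 928 CPM in eWAT on ND and 1560 to 5220 on HFD. Of the 12, 11 were called higher, where 24.8% of all genes were, and *Mertk*, a receptor for dying cells, was called lower (-0.98 ± 0.27, adjusted p = 0.0119). In bulk tissue, fewer cells of a type and less RNA per cell cannot be told apart. With the 4 libraries that held epididymis RNA left out, the same 5 members passed, with *Folr2* at 2.48, *Mrc1* at 1.56, *Clec10a* at 1.24, *Arg1* at 3.53 and *Cd163* at -0.99. With the series as a term the 5 also passed, *Folr2* at 2.51 and *Cd163* at -1.39, and *Chil3* was a 6th (4.28, adjusted p = 0.0597). For neither fit is the share of all genes called given, so these calls cannot be read as particular to the members. A value within series 2 could not be tested, since it held 1 wild type HFD library.

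**Figure D2:**
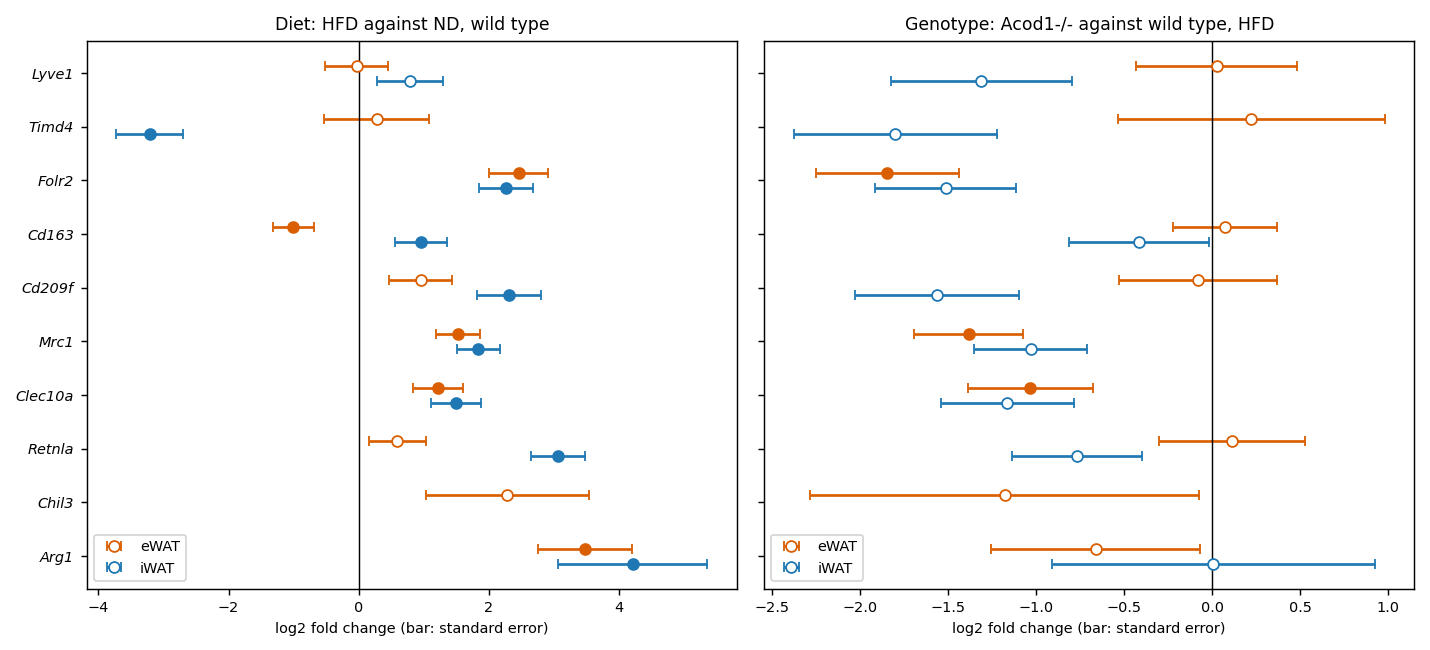
Log2 fold change and standard error of each member by diet (left) and by genotype on HFD (right), in eWAT (orange) and iWAT (blue), with filled points for an adjusted p under 0.1. By diet, Cd163 lies below 0 in eWAT and above 0 in iWAT. By genotype, Folr2, Mrc1 and Clec10a are filled in eWAT and no point is filled in iWAT.

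*Acod1*-/- and wild type mice on HFD were then compared in eWAT. *Folr2*, *Mrc1* and *Clec10a*, which rose with diet, fell with loss of *Acod1*, and the other 7 members did not pass the test. The diet and genotype comparisons share the wild type HFD libraries with opposite sign, so their opposite directions are not independent. The 3 members called lower stand against 10.8% of genes called lower, and 0 of 10 were called higher against 9.13% of genes (edgeR). The members' median log2 fold change was -0.37, against 0.04 over all genes.

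*Folr2* had 32.4, 10.6, 17.3, 25.3 and 40.5 CPM in *Acod1*-/- libraries 1 to 5. All were below the lowest wild type HFD library (41.3), an order seen in 4.37% of genes and in no other member, while 0 members and 2.77% of genes were apart in the other direction. The log2 fold change was -1.84 ± 0.41 (adjusted p = 0.0152), a 3.59-fold difference. *Mrc1* had 76.6, 55.2, 58.2, 66.1 and 137 CPM. Library 5 alone entered the wild type range (105 to 297). Its log2 fold change was -1.38 ± 0.31 (adjusted p = 0.0157).

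*Clec10a* had 56.9, 21.4, 35.1, 27.1 and 85.2 CPM, with library 5 again highest and above 2 of the wild type HFD libraries. It fell by 1.03 ± 0.35 on the log2 scale (adjusted p = 0.0716). This call was lost without any of wild type HFD libraries 1, 2 and 4 or *Acod1*-/- libraries 2, 3 and 4 (adjusted p from 0.101 to 0.155 in these fits). Library 5 of the *Acod1*-/- group held epididymis RNA (1040 CPM) and was alone of that group in series 2.

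*Cd163* was not called, at 51.2, 20.3, 43.5, 35.1 and 42.5 CPM in *Acod1*-/- mice (log2 fold change 0.07 ± 0.30, adjusted p = 0.898). Its level in *Acod1*-/- mice on HFD was below that of chow-fed wild type mice (log2 fold change -0.93 ± 0.31, adjusted p = 0.0569, a call lost in 5 alternatives, among them without ND library 3 or 4 or *Acod1*-/- library 2), as it was in wild type mice on HFD, and both comparisons share the ND libraries. *Retnla* had 358, 232, 171, 246 and 308 CPM, within the range of wild type mice on HFD (0.11 ± 0.41, adjusted p = 0.886). *Lyve1* (17.8 to 43.8 CPM), *Cd209f* (9.66 to 30.7) and *Timd4* (1.06 to 5.04) also lay within or across the wild type range, with log2 fold changes of 0.03 ± 0.46, -0.08 ± 0.45 and 0.22 ± 0.76. The highest *Timd4* value in eWAT was that of *Acod1*-/- library 4, which also had the most lymph node B cell RNA in that depot (76.8 CPM).

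*Arg1* had 0.991, 1.07, 4.91, 5.76 and 7.46 CPM in *Acod1*-/- eWAT, with libraries 1 and 2 beside the highest ND library and libraries 3 to 5 inside the range of wild type mice on HFD. Genotype gave no call (-0.66 ± 0.59, adjusted p = 0.493), but *Arg1* was higher than in chow-fed wild type mice (2.81 ± 0.70, adjusted p = 0.0208). That comparison, *Acod1*-/- on HFD against wild type on ND, called 1 member higher and 1 lower, against 13.5% and 13% of genes, and 0 members were apart, against 8.23% of genes higher and 9.23% lower. *Folr2* (0.61 ± 0.42, adjusted p = 0.320), *Mrc1* (0.14 ± 0.32, adjusted p = 0.788) and *Clec10a* (0.18 ± 0.37, adjusted p = 0.757) were not called in it. *Chil3* had 0.719, 0.190, 0, 1.03 and 5.15 CPM, and library 5 was above every wild type library (genotype -1.18 ± 1.11, adjusted p = 0.513).

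The general macrophage genes summed to 511 to 1510 CPM in *Acod1*-/- eWAT, with the highest value again in library 5, and 11 of the 12 were lower by genotype, where 10.8% of all genes were. With the 4 libraries of epididymis RNA left out, *Folr2* was at -2.54, *Mrc1* at -1.95 and *Clec10a* at -1.87 (adjusted p = 0.00204), and *Chil3* was a 4th member called (-2.83, adjusted p = 0.0831). Within series 1 alone, a fit chosen after the data had been seen like the one before, the values were -2.27, -1.85 and -1.53, with *Chil3* at -2.58 (adjusted p = 0.0815). Both fits left out library 5 of each HFD group. For *Folr2*, *Mrc1* and *Clec10a* it was the lowest of the wild type HFD libraries and the highest of the *Acod1*-/- libraries. Shares of all genes called in these fits are not given, so their calls cannot be read as particular to the members.

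To see the members beside the macrophage RNA of each library, their CPM were divided by a macrophage index, the geometric mean CPM of the 12 general macrophage genes. *Folr2* was 41.2 to 73.7% of the index in eWAT on ND, 55.7 to 72.4% in wild type mice on HFD and 42.3 to 83.7% in *Acod1*-/- mice. These ranges overlapped throughout. *Cd163* was 189 to 385% of the index on ND, 15.9 to 48.4% in wild type mice on HFD and 64.7 to 171% in *Acod1*-/- mice, and no 2 of these ranges overlapped. *Lyve1* had 83.6 to 152%, 5.05 to 59.0% and 65.1 to 106% in the same order, so wild type mice on HFD lay below both other groups.

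*Mrc1* was 206 to 318% of the index on ND, 122 to 172% in wild type mice on HFD and 166 to 229% in *Acod1*-/- mice. *Clec10a* was 116 to 213%, 48.4 to 86.9% and 68.2 to 147%. For both, every wild type HFD library was below every ND library. *Retnla* was 448 to 824%, 19.9 to 464% and 470 to 929%, so all *Acod1*-/- libraries were above all wild type HFD libraries. The share of all genes apart on this scale in eWAT was not counted, so these orders cannot be read as particular to the members.

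When the index entered the fit as an offset, the scale moved nearly every gene, with a median log2 shift of -2.19 by diet and 1.83 by genotype. On that scale 7 members were lower and 1 higher by diet, against 92.3% and 1.36% of all genes, and 7 were higher and 0 lower by genotype, against 92.0% and 0.656%, so these counts say nothing particular to the members. Against those shifts, *Cd163* had -3.30 ± 0.42 by diet (adjusted p = 1.93e-05), below the median of all genes, and 1.95 ± 0.39 by genotype. *Folr2* had 0.04 ± 0.31 by diet and 0.06 ± 0.29 by genotype, and was not called in either. *Mrc1* (-0.85 ± 0.31 and 0.49 ± 0.29) and *Clec10a* (-1.06 ± 0.34 and 0.72 ± 0.32) lay between *Folr2* and *Cd163*.

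**Figure D3:**
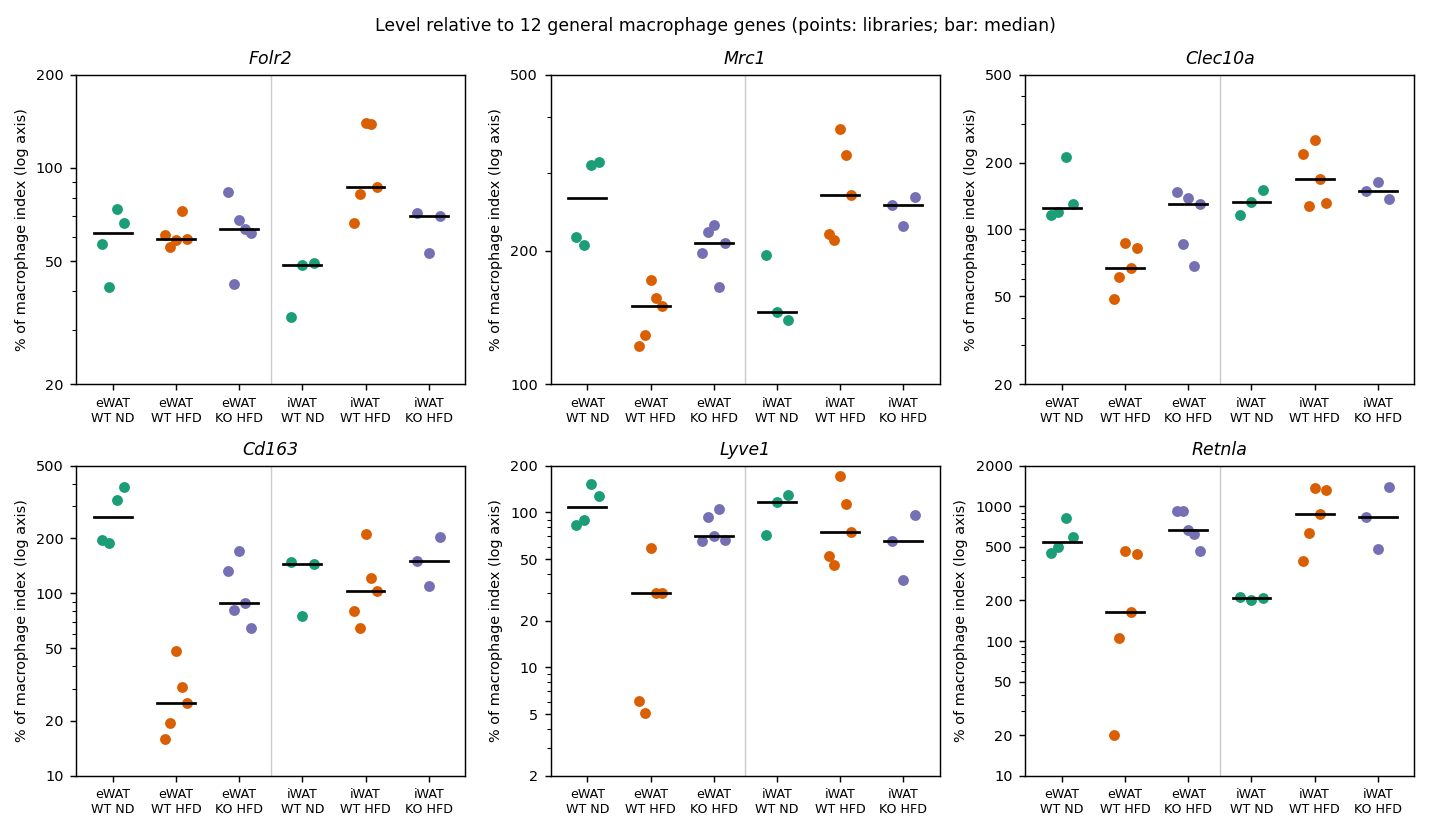
CPM of 6 members as a percentage of the macrophage index of the same library (log axis, points are libraries, bars are medians). In eWAT, Folr2 is level over the 3 groups, whereas Cd163, Lyve1, Clec10a, Mrc1 and Retnla have their lowest median in wild type mice on HFD. The index itself is highest in that eWAT group.

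Among single eWAT libraries the members fell into a pair of patterns. With the group means subtracted, over 14 libraries, *Folr2*, *Mrc1* and *Clec10a* went together (Pearson's r of 0.86 to 0.92 between them) and with the summed macrophage genes (0.94, 0.93 and 0.80). *Retnla* and *Timd4* went together (0.82), and with 7 adipocyte genes (0.79 and 0.72) more than with the macrophage genes (-0.29 and -0.26). *Cd209f* lay nearest *Retnla* (0.75) and *Lyve1* (0.72). These are descriptions across libraries that share tissue composition and depth, and wild type HFD library 1, with 5220 CPM of macrophage genes and 48.5 of *Retnla*, lies at an end of both patterns.

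**Figure D4:**
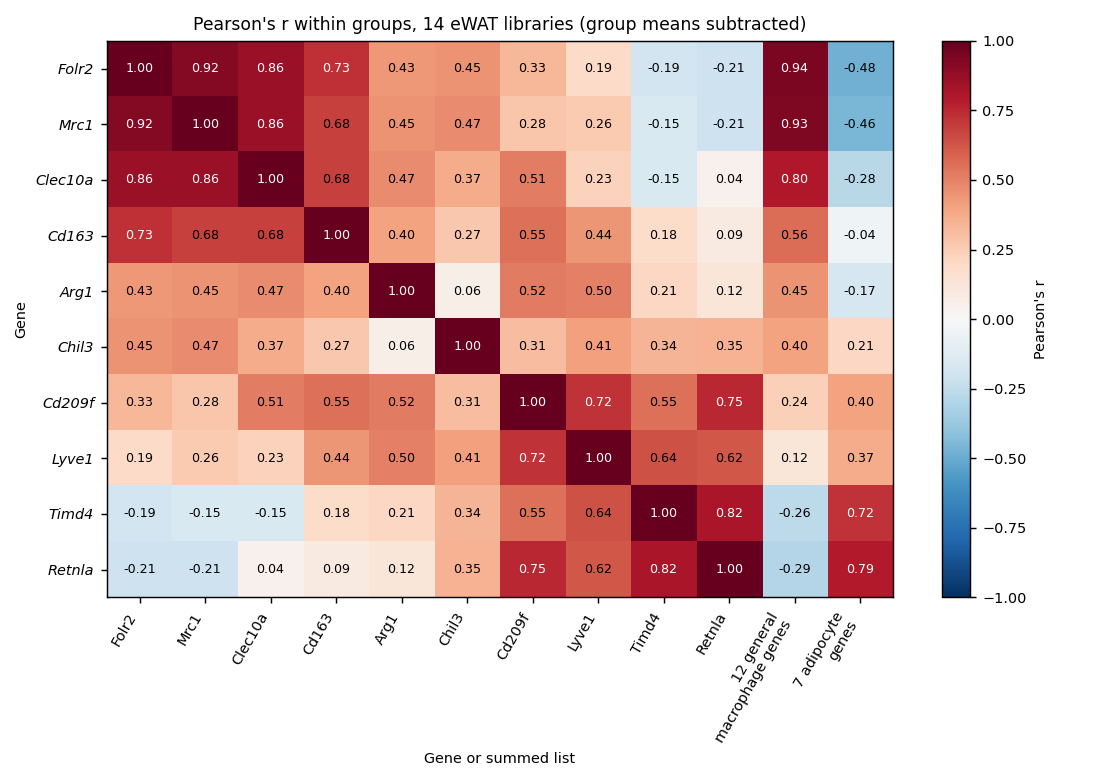
Pearson's r between members (rows) and members or summed gene lists (columns) over 14 eWAT libraries after subtraction of group means. Folr2, Mrc1 and Clec10a form a block with the 12 general macrophage genes (0.80 to 0.94), and Retnla and Timd4 reach 0.79 and 0.72 with the 7 adipocyte genes.

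Over 10930 genes, those closest to each member across the same libraries were ranked. The first 3 are given for *Folr2* and *Cd209f*, and the first for the other members. Nearest to *Folr2* were *St6gal1* (r = 0.972), *Serpinb6a* (0.972) and *C1qb* (0.960), the last a complement gene of macrophages. Nearest to *Lyve1* was *F13a1* (0.912), coagulation factor XIII A of resident macrophages, and nearest to *Clec10a* was *Tgfbi* (0.958). *Cd209f* was closest to *Ednrb* (0.953), *Gfra2* (0.925) and its neighbour in the family *Cd209g* (0.921). The last is a near copy of *Cd209f* with an identical run of 416 bases, and the part of shared reads in this r was not tested. *Mrc1* was closest to *Capza2* (0.968), *Retnla* to *Cd164* (0.919), *Cd163* to *Trmt10b* (0.889), *Timd4* to *Kiz* (0.947), *Chil3* to *Pde4d* (0.900) and *Arg1* to *Gc* (0.834).

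In iWAT, HFD-fed and chow-fed wild type mice differed in most of the members. *Folr2*, *Mrc1*, *Cd209f*, *Cd163*, *Clec10a*, *Retnla* and *Arg1* rose and *Timd4* fell, while *Lyve1* was not called. The 7 of 9 called higher stand against 25.9% of 14801 genes, and the 1 lower against 24.2%. The members' median log2 fold change was 1.83, against 0.00 over all genes. All 3 ND libraries held lymph node RNA (554 to 787 CPM of B cell genes) and the HFD libraries far less (4.46 to 45.8), so diet and lymph node content cannot be told apart in iWAT.

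*Retnla* had 40.1, 46.2 and 37 CPM in ND libraries 1 to 3 and 218, 205, 449, 504 and 340 CPM in wild type HFD libraries 1 to 5. All HFD libraries were far above the highest ND library. The log2 fold change was 3.06 ± 0.42 (adjusted p = 0.000348), an 8.35-fold rise. *Cd209f* had 6.19, 9.10 and 6.18 CPM on ND and 34.4, 15.6, 57.6, 51.3 and 18.2 on HFD, with the groups apart (2.31 ± 0.49, adjusted p = 0.00347). Groups apart in this direction were seen in 6 of the 9 members tested and in 24.4% of genes, and in the other in 1 member, *Timd4*, and in 22.7%. *Chil3*, under the filter and not in these counts, was also apart and higher on HFD.

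*Folr2* had 6.28, 11.2 and 8.84 CPM on ND and 37.1, 26.6, 45.1, 78.6 and 22.2 on HFD (log2 fold change 2.26 ± 0.41, adjusted p = 0.00166). *Mrc1* had 37.1, 33.8 and 25.1 CPM on ND and 122, 68.5, 122, 188 and 68.7 on HFD (1.83 ± 0.33, adjusted p = 0.00156). Both genes were apart between the groups, with HFD libraries 2 and 5 lowest among the HFD libraries. *Clec10a* had 22, 30.7 and 27.0 CPM on ND and 122, 40.9, 82.5, 96.4 and 33.8 on HFD (1.5 ± 0.38, adjusted p = 0.00980).

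*Arg1* had 0, 1.46 and 0.138 CPM on ND and 9.39, 14.2, 2.02, 15.1 and 9.64 on HFD, and the groups did not overlap (log2 fold change 4.20 ± 1.15, adjusted p = 0.0135). Its size rests on few reads, since ND library 2 alone had 76 counts and the other ND libraries 0 and 6, and without library 2 the value was 7.12. *Cd163* had 28.1, 17.4 and 25.9 CPM on ND and 44.5, 20.9, 68.8, 69.7 and 26.5 on HFD. These groups overlapped, and the rise of 0.95 ± 0.41 (adjusted p = 0.0802) was lost in 8 of 19 alternatives, among them without any 1 of the ND libraries or of HFD libraries 1, 3 and 4 (adjusted p from 0.106 to 0.246). *Lyve1* had 13.5, 27.1 and 23.4 CPM on ND and 29.3, 14.8, 56.1, 64.8 and 19.2 on HFD (0.79 ± 0.50, adjusted p = 0.229). Lymphatic endothelial genes (6 genes, among them *Prox1*) summed to 106 to 237 CPM on ND and 18.2 to 34.6 on HFD, but the list was mixed. *Ccl21a* was called lower (-5.86, adjusted p = 0.00249), and *Pdpn* (1.48, adjusted p = 0.00853) and *Flt4* (0.32, adjusted p = 0.0808) were called higher. *Prox1* (-1.22, adjusted p = 0.167), *Mmrn1* and *Reln* were not called.

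*Timd4* had 28.7, 55.2 and 37.7 CPM in iWAT on ND and 3.40, 0.799, 7.23, 6.92 and 3.56 on HFD (log2 fold change -3.21 ± 0.52, adjusted p = 0.000846). Over the 25 libraries, the 3 highest in B cell genes were the 3 highest in *Timd4*, and ND library 2 was first in both. Lymph node macrophages express *Timd4* too. Among the other libraries, iWAT HFD library 5 had 45.8 CPM of B cell genes and 3.56 of *Timd4*, which was not above HFD libraries 3 and 4, with 7.99 and 6.95 CPM of B cell genes. The share of *Timd4* that came from lymph node cells was not tested.

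**Figure D5:**
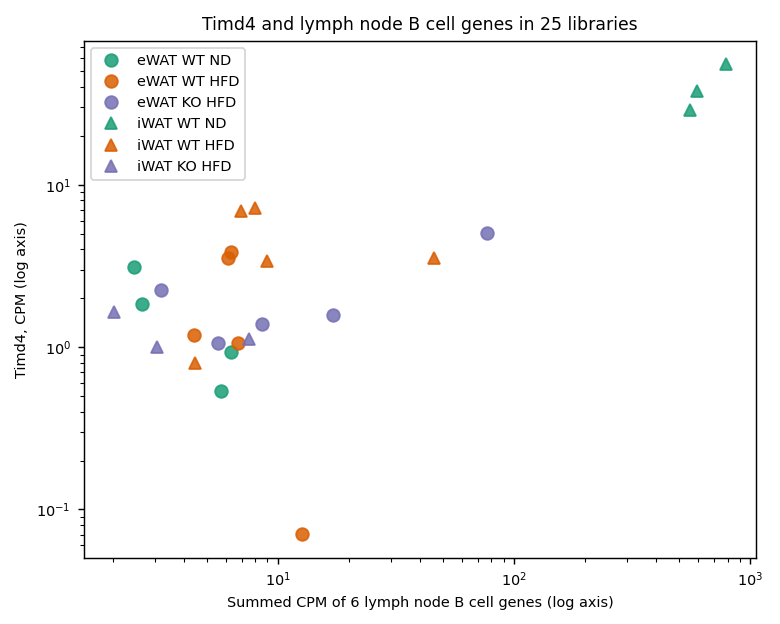
Timd4 CPM against the summed CPM of 6 lymph node B cell genes in 25 libraries (both log axes, circles eWAT, triangles iWAT, colours by group). The 3 iWAT ND libraries lie alone at the upper right, at 554 to 787 CPM of B cell genes and 28.7 to 55.2 of Timd4.

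*Chil3* in iWAT had 0, 0.192 and 0.207 CPM on ND (0, 10 and 9 counts), 1.03, 0.876, 1.28, 1.67 and 1.08 in wild type mice on HFD (34 to 67 counts) and 0.0508, 0.343 and 0.0499 in *Acod1*-/- mice (2, 11 and 2 counts). Every wild type HFD library was above every library of the other groups. In a two-sided exact permutation test of CPM, p = 0.0357 for diet and p = 0.0357 for genotype, the smallest these 56 splits allow. *Acod1*-/- mice did not differ from chow-fed wild type mice (exact permutation p = 1, where 20 splits allow no p under 0.1). These p-values are not adjusted for other genes.

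With the series as a term, 6 of the 8 iWAT diet calls passed, with *Retnla* at 3.39 and *Timd4* at -3.13. *Clec10a* (0.74, adjusted p = 0.213) and *Cd163* (0.74, adjusted p = 0.349) did not. All iWAT ND libraries were in series 2, where library 5 was the only one of wild type HFD, so this term separates series from diet only weakly. Macrophage genes summed to 505 to 647 CPM on ND and 600 to 1420 on HFD, and 8 of 12 were called higher, where 25.9% of all genes were. Relative to the macrophage index, *Retnla* was 200 to 212% on ND and 391 to 1380% on HFD, and *Folr2* 33.1 to 49.3% and 66.3 to 139%, with no overlap in either. The iWAT ND index came from the libraries with lymph node RNA, so ratios to it share that limit. How many of all genes were apart on this scale was not counted. *Cd163* was 75.1 to 148% and 64.8 to 212%, and *Lyve1* 71.4 to 130% and 46 to 173%, both overlapping. With the index as offset, 5 members were higher and 1 lower, against 4.06% and 59.2% of genes and a median shift of -0.89 over all genes. Of 16 other genes of resident macrophages, 37.5% were higher and 6.25% lower. Of 7 other genes of alternative activation, 57.1% were higher and 14.3% lower. The member counts are thus not particular to the members. *Folr2* had 1.23 ± 0.34, *Cd209f* 1.34 (adjusted p = 0.0109) and *Mrc1* 0.81 ± 0.31 on that scale. With *Adgre1* alone as the index, these 3 were at 0.00, 0.12 and -0.32 and none was called. *Clec10a* (-0.76, adjusted p = 0.0881), *Cd163* (-1.18, adjusted p = 0.00987) and *Lyve1* (-1.47, adjusted p = 0.00298), not called with the 12 genes, were then called lower. With the 3 C1q genes as the index, *Mrc1* was at 0.34 (adjusted p = 0.320) and *Lyve1* was called lower (-0.70, adjusted p = 0.0994). *Mrc1* also lost its call without ND library 2 (adjusted p = 0.115) or 3 (adjusted p = 0.153), and with the series as a term (0.149), as did *Cd209f* (0.116).

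By genotype, iWAT gave 0 members called in either direction, and 0.00% of all genes. At an unadjusted p under 0.05 there were 6 of 9 members and 2468 of 14801 genes. DESeq2's Wald test called 6 members lower, against 4.27% of all genes by that test, and 0 higher, against 2.97%. The paper's own tests used DESeq2, so the absence of calls here belongs to edgeR. *Folr2* had 19, 10.6 and 14.4 CPM in *Acod1*-/- libraries 1 to 3, below all wild type HFD libraries (log2 fold change -1.51 ± 0.40, adjusted p = 0.143). *Mrc1* had 67.5, 45.6 and 54.2 CPM, also below all of them (-1.03 ± 0.32, adjusted p = 0.164). Of the 9 members tested, these 2 were apart in this direction, as were 5.10% of genes, and 0 members and 3.18% of genes in the other. *Chil3*, under the filter and not in these counts, was also apart and lower.

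*Cd209f* (17.8, 6.76 and 11.3 CPM, -1.56 ± 0.47, adjusted p = 0.158), *Timd4* (1.12, 0.997 and 1.65 CPM, -1.80 ± 0.58, adjusted p = 0.171) and *Clec10a* (39.7, 32.7 and 28.1 CPM, -1.16 ± 0.38, adjusted p = 0.174) overlapped with wild type mice on HFD, as did *Lyve1* (17.4, 7.29 and 19.8 CPM, -1.31 ± 0.52, adjusted p = 0.237). *Retnla* had 223, 95.9 and 286 CPM (-0.77 ± 0.37, adjusted p = 0.326). *Cd163* had 40.1, 21.7 and 41.9 CPM (-0.41 ± 0.40, adjusted p = 0.645). *Arg1* had 6.88, 4.36 and 19.1 CPM (0.01 ± 0.92, adjusted p = 0.998). Library 2, the lowest of the 3 in every one of these genes but *Clec10a*, also held 587 CPM of skin and mammary epithelium genes. Without wild type HFD library 5, 2 members passed, *Folr2* (adjusted p = 0.0929) and *Clec10a* (adjusted p = 0.0976), and without *Acod1*-/- library 3 *Folr2* alone did (adjusted p = 0.0863). The shares of all genes called in these fits are not given, so these calls cannot be read as particular to the members.

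Relative to the macrophage index, 0 members were called by genotype in iWAT by edgeR, against 37.7% of genes higher and 0.432% lower and a median shift of 0.72 over all genes. There 0 of 9 members and 6671 of 14801 genes had an unadjusted p under 0.05.

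*Acod1*-/- mice on HFD and chow-fed wild type mice differed in iWAT by a rise of *Retnla* (2.29 ± 0.42, adjusted p = 0.00275) and *Arg1* (4.21 ± 1.19, adjusted p = 0.0240) and a fall of *Timd4* (-5.01 ± 0.69, adjusted p = 0.000584). These were 2 members higher and 1 lower, against 18.5% and 16.1% of genes. *Mrc1* was above every ND library but was not called (0.80 ± 0.35, adjusted p = 0.111). It was called in 6 of 19 alternatives, among them the fit of only the groups compared (adjusted p = 0.0444) and those leaving out HFD library 2, 4 or 5 of wild type mice (adjusted p from 0.0584 to 0.0895). With it, 3 members were apart and higher, against 18% of genes, and *Timd4* was apart and lower, against 19%. The same ND libraries with lymph node RNA enter here.

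Whether diet acted differently in the depots was tested as an interaction in a fit of all 25 libraries. *Retnla* (difference of log2 fold changes, iWAT minus eWAT, 2.44 ± 0.63, adjusted p = 0.00862) and *Cd163* (1.93 ± 0.54, adjusted p = 0.0129) were called higher, and *Timd4* lower (-3.52 ± 1.04, adjusted p = 0.0190). Shares of 15% and 14% of 15034 genes were called in these directions. *Folr2* (-0.23 ± 0.61), *Mrc1* (0.28 ± 0.48) and *Clec10a* (0.26 ± 0.56) had differences near 0, with errors that leave room for a difference of about 1 in log2. For genotype, 0 members differed between depots and 1 gene of all tested did (0.00665%). At an unadjusted p under 0.05 there were 1 of 10 members, *Cd209f* (-1.46 ± 0.70, adjusted p = 0.486), and 1524 of 15034 genes. DESeq2's Wald test also called 0 members, against 0.432% of genes higher and 0.206% lower.

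Between depots on ND, on the scale of all 25 libraries, *Timd4* was higher in iWAT (29.1 to 55.8 CPM against 0.545 to 3.12, log2 fold change 4.67 ± 0.86, adjusted p = 0.000488). *Retnla* was lower in iWAT (36.6 to 46.7 CPM against 123 to 231, -1.97 ± 0.51, adjusted p = 0.00676), as were *Cd163* (17.6 to 28.5 against 46.3 to 91.0 CPM, -1.63 ± 0.42, adjusted p = 0.00759) and *Mrc1* (24.8 to 37.6 against 50.4 to 87.4 CPM, -1.16 ± 0.38, adjusted p = 0.0297). In these 4 members the depots did not overlap, which 16.9% of genes showed with iWAT higher and 19% with iWAT lower. The counts of 1 higher and 3 lower compare with 14.2% and 17.5% of genes, and the iWAT libraries were again those with lymph node RNA. Without iWAT ND library 3, the adjusted p of *Mrc1* was 0.124.

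On HFD, wild type iWAT was lower than eWAT in *Folr2* (21.5 to 77.2 against 41.5 to 149 CPM, -1.14 ± 0.39, adjusted p = 0.0564) and *Mrc1* (66.5 to 185 against 106 to 299 CPM, -0.88 ± 0.31, adjusted p = 0.0626). The depots overlapped in both. *Chil3* alone of the members was apart, lower in iWAT, but was not called (-1.48 ± 0.98, adjusted p = 0.357), where 7.04% of genes were apart and lower and 5.12% higher. On the test, 10.8% of genes were called lower and 7.75% higher. Both calls were lost without eWAT library 1 or 4, or iWAT library 2 or 5, and that of *Folr2* also without iWAT library 1 (adjusted p = 0.104). In *Acod1*-/- mice 0 members differed between depots by edgeR, against 1.80% of genes higher and 2.01% lower in iWAT, and 0 were apart, against 2.53% and 3.39%. There, 1 of 10 members had an unadjusted p under 0.05, *Chil3* (-3.29 ± 1.37, adjusted p = 0.267), beside 2092 of 15034 genes. DESeq2's Wald test called *Chil3* lower, against 3.53% of genes lower and 2.41% higher by that test.

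Other genes of the same programmes were counted as lists. Which cells of the bulk tissue expressed a listed gene was not tested, so a change need not lie in macrophages. Beside their counts stand the shares of all genes called, in eWAT 24.8% higher and 26.9% lower by diet and 9.13% and 10.8% by genotype, and in iWAT 25.9% and 24.2% by diet. Of 16 further genes of resident macrophages, 11 rose with diet in eWAT and 0 fell (median log2 fold change 0.92), among them *Pf4* (1.75 ± 0.26, adjusted p = 0.000520), a chemokine also of platelets, *Ltc4s* (1.35 ± 0.23, adjusted p = 0.000930), leukotriene C4 synthase, and *Igf1* (1.06 ± 0.20, adjusted p = 0.00158), a growth factor. By genotype 5 of the 16 were lower in eWAT, led by *Pf4* (-1.24 ± 0.24, adjusted p = 0.0115), the scavenger receptor *Stab1* (-1.33 ± 0.30, adjusted p = 0.0165) and *Gas6* (-0.53 ± 0.14, adjusted p = 0.0263), a ligand for receptors of dying cells. In iWAT 13 rose with diet, *Ltc4s* with the smallest adjusted p (1.17 ± 0.13, adjusted p = 0.000141), and 1, *Cd209b*, fell (-2.75 ± 0.42, adjusted p = 0.000588), from 51.9 to 103 CPM in the lymph-node-bearing ND libraries. *Cd209b* is also a gene of lymph node macrophages.

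Of 17 genes of the interleukin-4 and interleukin-13 pathway, 15 were tested, and in eWAT 6 rose with diet and 4 fell. The 26.7% that fell are close to the share of all genes. *Stat6* rose (0.47 ± 0.15, adjusted p = 0.0200), as did the receptor chains *Il13ra1* (0.91 ± 0.24, adjusted p = 0.0103) and *Il2rg* (0.91 ± 0.26, adjusted p = 0.0124). The transcription factors *Klf4* (-1.24 ± 0.24, adjusted p = 0.00182) and *Irf4* (-2.74 ± 0.59, adjusted p = 0.00314) and the kinase gene *Jak3* (-0.43 ± 0.12, adjusted p = 0.0111) fell. *Il4ra*, given for its role and chosen after its values were seen, fell too (-0.42 ± 0.15, adjusted p = 0.0336). By genotype, *Il13ra1* (-0.97 ± 0.23, adjusted p = 0.0188) and *Il1rl1*, the interleukin-33 receptor (-0.76 ± 0.29, adjusted p = 0.0991), were lower. In iWAT 1 gene of this list rose with diet and 6 fell, led by *Irf4* (-2.66 ± 0.25) and *Il2rg* (-2.58 ± 0.26), both of which lymphocytes express. *Il4* and *Il13*, the ligands, were under the filter on low counts in both depots.

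Of 12 further genes of alternative activation, 9 were tested in eWAT, where 4 rose and 1 fell with diet. The smallest adjusted p was that of *Fn1* (1.17 ± 0.30, adjusted p = 0.00762), and *Ch25h*, cholesterol 25-hydroxylase, was the 1 that fell (-2.40 ± 1.05, adjusted p = 0.0780). By genotype 1, fibronectin again, was lower in eWAT (-0.76 ± 0.28, adjusted p = 0.0869). In iWAT 5 of 7 rose with diet and 1 fell, with the chemokine *Ccl24* in front (3.26 ± 0.51, adjusted p = 0.000747). Genes of lipid-associated macrophages, such as *Trem2* and *Gpnmb*, rose with diet in eWAT in 10 of 10 cases (median 3.46) and were lower by genotype in 9 (median -2.89). For comparison, medians over all genes lay between -0.04 and 0.04.

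Some members have near copies in the genome whose reads could be shared. The longest protein-coding transcripts of *Clec10a* and *Mgl2* (CD301b) were 96.7% identical over 704 aligned bases, with an unbroken run of 183. Those of *Chil3* and *Chil4* were 94.7% identical over 1535 bases (run of 136), and those of *Cd209f* and *Cd209g* 92.1% over 1157 (run of 416). How reads that fit both copies were counted is not given in the sources used here, so values of these members are uncertain to that extent. *Mgl2* had 23.9 ± 6.12 CPM on ND (SD, n = 4), 31.2 ± 14.6 in wild type mice on HFD (n = 5) and 33.5 ± 11.7 in *Acod1*-/- mice (n = 5) in eWAT and was not called by diet (0.39 ± 0.36, adjusted p = 0.401) or genotype (0.10 ± 0.34, adjusted p = 0.873), unlike *Clec10a*. The difference between these genes was not tested. *Cd209g* was called in iWAT by diet (2.19 ± 0.50, adjusted p = 0.00541), as *Cd209f* was, and *Chil4* had at most 0.627 CPM in any library.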

How the data were processed

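RNA from snap-frozen fat was made into directional mRNA libraries, 1 per sample. Per the paper's methods, the authors trimmed adaptors with cutadapt, dropped short and contaminant reads, and used STAR 2.4.2a against GRCm38 for alignment. They tested differential expression with DESeq2, which is among the alternatives here. The authors deposited raw counts per gene, the cDNA length and 2 columns of FPKM. The FPKM values were used only to check that they follow from counts and lengths. The counting program and strand setting are not given in the sources used here. Rows of reads on no feature (6.41 to 11.88% of reads) or ambiguous (1.52 to 2.07%) were left out.

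Gene symbols came from GENCODE vM21. The filter kept genes at a mean of 1 CPM or more, which were tested with edgeR 4.0.16 (quasi-likelihood, TMM), per depot in 1 fit of 3 groups and over 25 libraries for contrasts between depots, with Benjamini-Hochberg adjustment over all genes tested. An adjusted p under 0.1 was a call. SE is the log2 fold change over the root of F. CPM in the text are TMM-scaled within the depot, and RPKM are these per kilobase of cDNA. The edgeR p-values weigh a difference between groups against the spread between libraries. The deposited counts were compared between libraries of a group, and none were copies (chi-square per degree of freedom at least 33.8).

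The members, gene lists and naming rule were chosen with earlier results of these data known. All members were named, listed genes mainly by smallest adjusted p, and for each member the genes with the highest r over eWAT libraries. Alternatives were no filter, 1 CPM in every library, DESeq2 1.42.0 (size factors in edgeR, and its Wald test), an adjusted p under 0.05, only the groups compared, a replicate block, the series as a term, other indices and each library left out. Fits of series 1 alone, without libraries with epididymis RNA, and with a block by mouse were added after the data had been seen. The test was checked on simulated data. Python 3.11.15 and matplotlib 3.10.9 made tables and figures.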

Additional observations from a re-analysis of the deposited data

Results flagged for a closer look

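In *Acod1*-/- eWAT, library 5 stood apart from the other 4 in *Mrc1* (137 CPM against 55.2 to 76.6) and in *Chil3* (5.15 CPM against 0 to 1.03). Of 40 groups of 4 or 5 libraries looked at this way, these 2 were so far apart, and chance gives about 1 in 20. The same library had the most macrophage RNA of its group (1510 CPM), held epididymis RNA (1040 CPM) and was alone in series 2, and the part of these in its values was not tested.

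By diet, 3 members differed between depots in the interaction test, iWAT minus eWAT on the log2 scale, namely *Cd163* (1.93), *Timd4* (-3.52) and *Retnla* (2.44). The iWAT ND libraries that enter each of these held lymph node RNA.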

How the results depend on the processing

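Over 3661 single-member outcomes of the alternatives, 3437 kept their sign and their side of the threshold, 68 lost and 46 gained a call, and 107, in 35 pairs of a member and a comparison, changed sign without being called in either fit, such as *Lyve1* by eWAT diet (-0.36 to 0.21), *Arg1* by iWAT genotype (-0.81 to 0.63) and *Chil3* between *Acod1*-/- on HFD and ND in eWAT (-1.10 to 2.25). The other 3 changed sign with a call in 1 of the fits, for iWAT diet with *Adgre1* alone as macrophage index. Of these, *Clec10a* gained a call at -0.76, *Mrc1* lost its call at -0.32, and *Folr2* lost its call at a value that was 0.00 after rounding. The 2 members called in eWAT between *Acod1*-/- on HFD and ND fell to 1 at an adjusted p under 0.05, with 1 CPM in every library and with the series as a term, and to 1 to 3 with a library left out. The 8 called by eWAT diet relative to the index fell to 3 with the series as a term and were 5 to 8 with a library left out, 5 without ND library 3. In iWAT by genotype, 0 became 6 with DESeq2's Wald test, 1 in series 1 alone and 0 to 2 with a library left out. Relative to the index it became 1 with 1 CPM in every library, 1 with *Adgre1* alone and 0 to 2 with a library left out. The 3 of iWAT between *Acod1*-/- on HFD and ND became 1 with 1 CPM in every library. Between depots on HFD, 2 in wild type mice became 0 at an adjusted p under 0.05, 1 with no filter and 0 to 2 with a library left out, and 0 in *Acod1*-/- mice became 1 with the Wald test. The cause was not tested, except that a stricter threshold or filter leaves fewer calls or genes. Apart from those given above for the Wald test, shares of all genes called in the alternatives are not listed here. *Chil3* by eWAT diet passed with the Wald test (adjusted p = 0.0862), the series as a term (0.0597), only the groups compared (0.0685), without ND library 4 (0.0826) and without *Acod1*-/- library 3 (0.0970).

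The labels do not say that a number marks 1 mouse, and replicate numbers were not taken to pair the samples, since the correlation of same-numbered libraries ran from -0.24 to 0.56 and passed 0.1 in 8 of 22 pairs within a depot and 6 of 11 across depots. In wild type mice on HFD, it was 0.40, 0.56 and 0.21 across depots for numbers 1, 4 and 5, and -0.06 and 0.03 for 2 and 3. With a replicate block, 5 members were called by diet and 3 by genotype in eWAT, and 8 and 0 in iWAT, and no count moved by over 1.5 times. The block called *Mrc1* between *Acod1*-/- on HFD and ND in iWAT (0.78, adjusted p = 0.0492) and lost *Arg1* by eWAT diet relative to the index (1.02, adjusted p = 0.117). With a replicate block across depots, as if 1 number were 1 mouse, *Folr2* (-1.12, adjusted p = 0.0185) and *Mrc1* (-0.88, adjusted p = 0.00789) were again lower in iWAT of wild type mice on HFD, and *Folr2* on ND (-0.93, adjusted p = 0.0910) and *Cd209f* in the diet interaction (1.53, adjusted p = 0.0433) were also called. Groups of 3 in iWAT and few counts of *Chil3* in iWAT (0 to 67 per library) and of *Arg1* on ND (0 to 76) limit what could be detected.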
